A study of Homo sapiens with 12 samples.

Results

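The 5 precursors MIRLET7B, MIRLET7C, MIRLET7E, MIRLET7G and MIRLET7I encode let-7 microRNAs that each come from a single gene in the human genome, in contrast to let-7a and let-7f, which come from several. let-7d also comes from a single gene, is not among the 5, and is given with the rest of the family. They were chosen by their GENCODE v44 gene names among the 1881 miRNA precursor genes of the count files, so they are 5 of 1881 genes, and all 5 passed the filter on low counts, as did 175 precursors in all. Small RNA was sequenced from the human melanoma line A375, which carries an activating BRAF mutation, and from A375-BIR, a derivative selected by growth in rising concentrations of the BRAF inhibitor dabrafenib. Cells of each line received 0.1% DMSO, the vehicle, or 200 nM dabrafenib for 48 h, with 3 biological replicates in each of the 4 groups (12 libraries). Neither the labels nor the methods say whether A375-BIR was kept as a clone or as a pool, and a single resistant derivative was sequenced, so resistance cannot be told apart from other differences between these cultures. The comparisons ask how these precursors differ between the sensitive and the resistant line, and how each line responds to the drug.

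The let-7 family was found in worms as a regulator of developmental timing and is among the most strongly expressed microRNA families of differentiated human cells. Its members repress mRNAs through a shared seed, the bases near the 5′ end that pair with the target, and known targets include RAS genes, MYC and HMGA2. The precursors are under common control by LIN28, which binds the terminal loop of many let-7 hairpins and blocks their processing, so the members are often described as a group although their genes lie on different chromosomes.

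The mature sequences are shown because the members differ by so few bases that the counts of some depend on how reads were divided. The 5p sequences below, from RefSeq on GRCh38.p14, were found for all 5 members, with let-7a added as the closest relative; the capitals mark the seed, bases 2 to 8.

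let-7b-5p: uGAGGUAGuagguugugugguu
let-7c-5p: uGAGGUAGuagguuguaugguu
let-7e-5p: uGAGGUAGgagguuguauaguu
let-7g-5p: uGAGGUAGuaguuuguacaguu
let-7i-5p: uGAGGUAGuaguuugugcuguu
let-7a-5p: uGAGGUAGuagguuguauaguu

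All 6 sequences have 22 bases and the same seed, which 11 mature miRNAs from 14 hairpins share in the RefSeq table. With positions counted from 1 at the 5′ end, let-7b and let-7c differ by G17A alone, let-7c and let-7a by G19A alone, and let-7e and let-7a by G9U alone. let-7g and let-7i differ by A17G and A19U. let-7c is thus a single base away from let-7b on the one side and from let-7a on the other. A read that ends before base 17 cannot tell let-7c from let-7b. A read that ends before base 19 cannot tell it from let-7a. The deposited values are expected counts from RSEM, which divides such reads among precursors, and 44 of the 60 values of the 5 members were not whole numbers. The values belong to whole precursors, so the 5p and 3p arms were not told apart.

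The hairpins of let-7b and let-7c are shown because these members moved in opposite directions between the lines; the capitals mark the mature 5p and 3p arms.

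let-7b hairpin: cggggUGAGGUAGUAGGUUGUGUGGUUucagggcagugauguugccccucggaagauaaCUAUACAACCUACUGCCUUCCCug
let-7c hairpin: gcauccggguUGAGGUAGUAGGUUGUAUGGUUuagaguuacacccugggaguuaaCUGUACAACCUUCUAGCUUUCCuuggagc

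The letters GGAG, known from LIN28 binding in let-7 terminal loops, occurred on the sense strand of 4 of the 5 hairpins and were absent from the let-7b hairpin. The count covers whole hairpins, not the terminal loops alone. GGAG occurred in 678 of 1562 human hairpins in the RefSeq table (43.4%), and a match describes the letters only. The letters GGAAG occurred 1 time in the let-7b hairpin and in none of the other 4, with no figure over all hairpins.

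The 5 genes lie on 5 chromosomes of hg38. MIRLET7B (ENSG00000284520) is at chr22:46113686-46113768 on the plus strand, in an exon of the noncoding host gene MIRLET7BHG. MIRLET7C (ENSG00000199030) is at chr21:16539828-16539911 on the plus strand within the long noncoding gene MIR99AHG, where 128 annotated transcripts span it and 3 hold it in an exon. MIRLET7E (ENSG00000198972) is at chr19:51692786-51692864 (plus strand), inside an intron of SPACA6 and overlapped by an exon of the antisense gene SPACA6-AS1. MIRLET7G (ENSG00000199150) is at chr3:52268278-52268361 (minus strand), inside an intron of WDR82, and MIRLET7I (ENSG00000199179) is at chr12:62603686-62603769 on the plus strand within MIRLET7IHG and an exon of the noncoding gene ENSG00000275180.

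The libraries held 35070 to 122792 summed expected counts (median 68581), with 370 to 518 precursors above 0. The totals were higher in the DMSO libraries, at 95321 ± 23433 in A375 and 116615 ± 8889 in A375-BIR (mean ± SD, n = 3), than in the dabrafenib libraries, at 45331 ± 7528 and 47525 ± 12415. rRNA-like precursors, those with a run of at least 18 bases found in 45S pre-ribosomal RNA (17 of 1881), took 4.10% ± 1.30 of the counts in A375 with DMSO and 22.8% ± 3.03 with dabrafenib (SD, n = 3). In A375-BIR they took 3.30% ± 1.11 with DMSO and 16.0% ± 1.41 with dabrafenib. Depth and this rRNA-like share therefore moved with treatment in both lines. With dabrafenib the share was also apart between the lines (20.9% to 26.3% in A375, 14.4% to 16.9% in A375-BIR). The part of depth and of this share in the results below was not tested beyond the alternatives reported with them. Shares are given as percent of the summed expected counts of a library. Fold changes use CPM, counts brought to a common library total with TMM factors. These factors were 0.694 to 0.822 in the A375 dabrafenib libraries and 1.05 to 1.19 in the others.

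let-7b and let-7i held the largest shares among the 5 precursors in all 12 libraries. let-7b was the most abundant of all precursors except in replicate 1 of A375 with DMSO, where let-7i was, and in replicate 1 of A375-BIR with dabrafenib, where an rRNA-like precursor was. This order is of single precursors. The 3 let-7a precursors, which share a mature sequence, together held 29.2% to 29.8% in A375-BIR with DMSO and 22.9% to 26.2% with dabrafenib. Their sum was above let-7b in every A375-BIR library, and in replicates 1 and 3 of A375 with DMSO (19.0% and 19.8%). let-7b, a let-7 with a high level in many differentiated tissues, took 18.4%, 20.9% and 18.9% of the counts in the A375 DMSO libraries (replicates 1 to 3) and 24.5%, 27.1% and 27.6% in the A375 dabrafenib libraries. In A375-BIR its share was 13.3%, 13.8% and 10.3% with DMSO and 12%, 12.2% and 13.9% with dabrafenib. All 6 A375 libraries were above all 6 A375-BIR libraries, and in A375 the dabrafenib libraries were above the DMSO libraries, while the A375-BIR groups overlapped. A count in these bulk libraries cannot tell a change in the amount of a microRNA per cell from a change in the rest of the library.

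let-7c, processed from the MIR99AHG transcript together with miR-99a in many cells, went the other way. Its share was 0.294%, 0.309% and 0.286% in A375 with DMSO and 0.441%, 0.480% and 0.480% in A375 with dabrafenib. In A375-BIR it was 1.57%, 1.58% and 1.32% with DMSO and 1.36%, 1.46% and 1.35% with dabrafenib. Every A375-BIR library was above every A375 library, the A375 dabrafenib libraries were above the A375 DMSO libraries, and the A375-BIR groups overlapped.

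let-7i took 20.5%, 20.6% and 17.5% of the counts in A375 with DMSO and 11.4%, 8.88% and 9.82% in A375 with dabrafenib. Its share in A375-BIR was 10.7%, 11.2% and 7.11% with DMSO and 6.56%, 7.06% and 11.0% with dabrafenib. The A375 DMSO libraries stood above all others, and the remaining 3 groups overlapped, with replicate 3 low in A375-BIR with DMSO and high in A375-BIR with dabrafenib.

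let-7g, which shares 20 of 22 bases with let-7i, took 2.61%, 2.50% and 2.32% in A375 with DMSO and 1.41%, 1.37% and 1.48% in A375 with dabrafenib. In A375-BIR it took 1.87%, 2.27% and 1.37% with DMSO and 1.32%, 1.44% and 1.70% with dabrafenib. Here too the A375 DMSO libraries were above the other 9, which overlapped.

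let-7e, from the cluster with miR-99b and miR-125a, took 0.809%, 0.947% and 1.06% in A375 with DMSO and 0.729%, 0.550% and 0.741% in A375 with dabrafenib. In A375-BIR it took 1.07%, 0.996% and 1.62% with DMSO and 1.15%, 1.04% and 0.655% with dabrafenib. The lines overlapped in let-7e with DMSO and with dabrafenib, and replicate 3 of A375-BIR was the highest of its group with DMSO and the lowest of its group with dabrafenib.

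**Figure D1:**
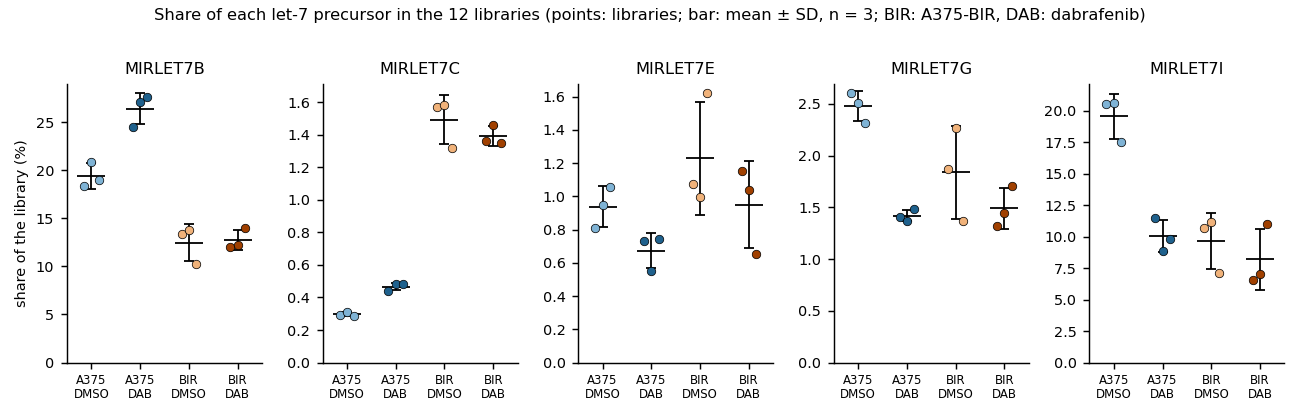
Share of each of the 5 let-7 precursors in the summed expected counts of a library (y axis, percent; x axis, group), with 1 point per library and bars for the mean ± SD (n = 3). let-7b is higher and let-7c lower in all 6 A375 libraries than in all 6 A375-BIR libraries.

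The order of the shares was nearly fixed at the top and varied at the bottom. These are shares of counts not divided by precursor length, which was 79 to 84 bases. let-7b was above let-7i in 11 of 12 libraries, the exception being replicate 1 of A375 with DMSO. In A375 with DMSO let-7b (19.4% ± 1.32) and let-7i (19.5% ± 1.76; SD, n = 3) did not differ beyond their spread. let-7g came next, then let-7e, and let-7c was lowest, in all 6 A375 libraries. In A375-BIR with DMSO the libraries of let-7g (1.84% ± 0.448), let-7c (1.49% ± 0.149) and let-7e (1.23% ± 0.340) overlapped, although let-7g was above let-7c within each of the 3, and let-7c was above let-7e in 5 of the 6 A375-BIR libraries.

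Summed, the 5 precursors held 42.6% ± 2.56 of the counts in A375 with DMSO, 39.0% ± 0.950 in A375 with dabrafenib, 26.7% ± 4.36 in A375-BIR with DMSO and 24.8% ± 3.39 in A375-BIR with dabrafenib (SD, n = 3). The 12 let-7 and miR-98 precursors as a whole held 62.6%, 54.2%, 57.0% and 50.1% in the same order. The direction after dabrafenib depended on the total: without the rRNA-like precursors in it, the 5 held 44.5%, 50.6%, 27.5% and 29.5%, and the 12 held 65.3%, 70.2%, 58.9% and 59.6%. Both sums were then higher in every A375 dabrafenib library than in the A375 DMSO libraries, and the A375-BIR groups overlapped. The 5 made up 68.1% ± 3.36 and 72.0% ± 0.715 of those 12 in A375, against 46.6% ± 4.50 and 49.3% ± 4.76 in A375-BIR. The 3 let-7a precursors, whose mature sequence is the same, held 18.4% and 14.1% of the counts in A375 and 29.5% and 24.6% in A375-BIR, with DMSO and dabrafenib respectively. The means of the lines lay closer in the share of all 12 precursors than in the share of the 5 within them, a description with no test.

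**Figure D2:**
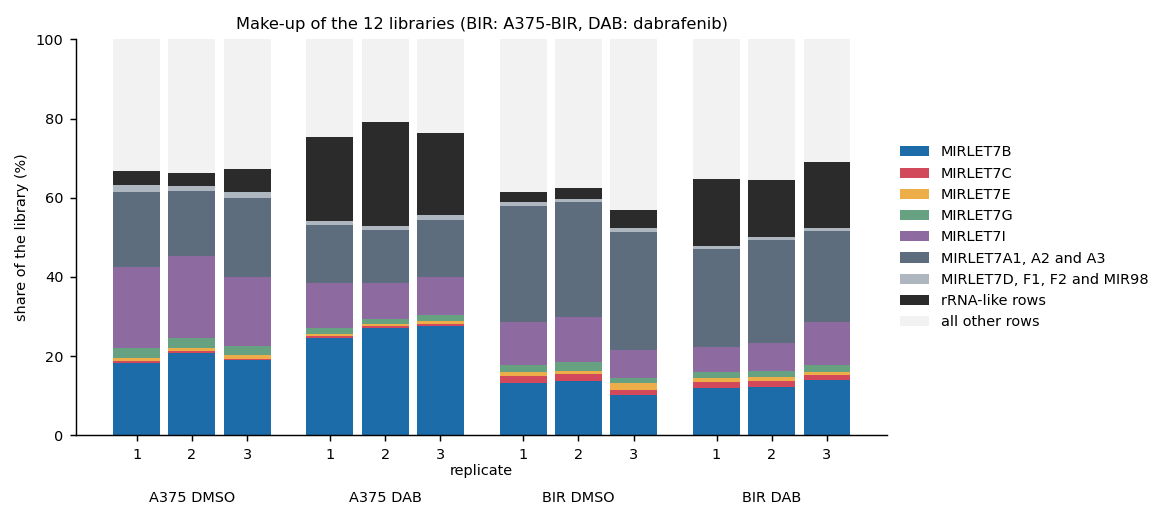
Share of the library (y axis, percent) held by each let-7 precursor, the rRNA-like precursors and all others, stacked for each replicate of each group (x axis). The 5 precursors together hold 42.6% and 39.0% in A375, and 26.7% and 24.8% in A375-BIR, with DMSO and dabrafenib (means). Without the rRNA-like precursors in the total these are 44.5% and 50.6%, and 27.5% and 29.5%.

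Over both treatments, the difference in mean share between the lines passed an exact two-sided permutation test with line labels exchanged within each treatment (400 arrangements, smallest possible p 0.005, FDR over 175 precursors) for 3 of the 5 precursors, beside 54.3% of all 175 tested. let-7b held 22.9% in A375 and 12.6% in A375-BIR, a difference of 10.3 percentage points (p = 0.005, FDR 0.0127). let-7c held 0.382% and 1.44%, a difference of -1.06 points (p = 0.005, FDR 0.0127). let-7i held 14.8% and 8.92%, a difference of 5.87 points (p = 0.015, FDR 0.0288). That call was lost without replicate 1 of A375-BIR with dabrafenib (5.46 points, FDR 0.0541), replicate 2 of that group (5.58 points, FDR 0.0559) or replicate 1 of A375 with dabrafenib (5.52 points, FDR 0.0597). let-7e (-0.284 points, FDR 0.100) and let-7g (0.285 points, FDR 0.219) did not pass, and let-7e passed without replicate 3 of A375-BIR with dabrafenib (-0.358 points, FDR 0.0227). Within a treatment 3 against 3 libraries cannot reach p below 0.1, so only overlap is given: with DMSO the lines did not overlap for 4 of the 5 (let-7b, let-7g and let-7i higher, let-7c lower in A375) beside 55.4% of all tested, and with dabrafenib for 2 (let-7b and let-7c) beside 53.7%. These overlaps depended on the scale. On the CPM scale let-7g overlapped with DMSO, while let-7g and let-7i were also apart with dabrafenib, higher in A375. No figure over all tested precursors is given for that scale, so these states are not read as results about the members.

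On the CPM scale the sensitive line had more let-7b and let-7i and less let-7c than the resistant line, in DMSO and in dabrafenib. The mean CPM of let-7b was 177218 ± 12500 in A375 and 114321 ± 24304 in A375-BIR with DMSO, and 342583 ± 44969 and 118855 ± 12679 with dabrafenib (SD, n = 3). That of let-7c was 2703 ± 123 and 13667 ± 2214 with DMSO, and 6076 ± 776 and 12947 ± 90.0 with dabrafenib. For let-7i it was 178439 ± 17307 and 88775 ± 25076 with DMSO, and 129374 ± 10591 and 76779 ± 24415 with dabrafenib.

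In an edgeR fit over all 12 libraries, the comparison of A375 with A375-BIR over both treatments called 4 of the 5 precursors at FDR below 0.05, beside 60.0% of all 175 tested (25.7% higher and 34.3% lower in A375, with TMM; DESeq2 size factors called 54 higher and 50 lower). let-7b was 2.11-fold higher (log2 fold change 1.08, SE 0.11, FDR 1.22e-06) and let-7i 1.84-fold higher (0.88, SE 0.16, FDR 1.97e-04). let-7c was 3.28-fold lower (-1.71, SE 0.11, FDR 7.56e-09). let-7g was 1.33-fold higher (0.41, SE 0.14, FDR 0.0179). let-7e did not pass (-0.20, 95% interval -0.51 to 0.11, FDR 0.250) and was called lower in 1 of 20 alternatives, with total counts (-0.44, FDR 0.0326). The let-7b, let-7c and let-7i calls of this fit held in all 20 alternatives tried, the let-7g call in 11 of 20 (0.18 with total counts, FDR up to 0.208 over the 20). Among the losses were those without replicate 1 or 3 of A375-BIR with DMSO, replicate 2 of A375-BIR with dabrafenib or replicate 1 of A375 with dabrafenib, where leaving out a library gave values from 0.31 to 0.51.

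With DMSO alone 3 of the 5 were called, beside 46.3% of all tested (16.0% higher, 30.3% lower). let-7c was 5.05-fold lower in A375 (log2 fold change -2.34, SE 0.16, FDR 3.16e-08), let-7i 2.01-fold higher (1.01, SE 0.22, FDR 0.00162) and let-7b 1.55-fold higher (0.63, SE 0.15, FDR 0.00336). let-7g was at 0.42 (95% interval 0.01 to 0.83, FDR 0.0902) and let-7e at -0.37 (-0.81 to 0.06, FDR 0.146). let-7g passed in 3 of 22 alternatives: without replicate 2 of A375-BIR with DMSO (0.62, FDR 0.0205), with total counts (0.43, FDR 0.0491) and with total counts without the let-7 precursors (0.61, FDR 0.0282).

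With dabrafenib 3 of the 5 were called, again beside 46.3% of all tested (42 precursors higher and 39 lower in A375). let-7b was 2.88-fold higher in A375 (log2 fold change 1.53, SE 0.16, FDR 1.90e-06), let-7c 2.13-fold lower (-1.09, SE 0.16, FDR 7.28e-05) and let-7i 1.68-fold higher (0.75, SE 0.22, FDR 0.0114). let-7g (0.40, 95% interval -0.01 to 0.81, FDR 0.109) and let-7e (-0.03, -0.48 to 0.41, FDR 0.923) were not called, and let-7g turned to -0.07 when libraries were scaled by total counts. The let-7i call was lost in 8 of 21 alternatives, among them total counts (0.29) and leaving out replicate 1 of A375-BIR with dabrafenib (0.62, FDR 0.0560), replicate 2 of that group (0.57, FDR 0.192) or replicate 1 of A375 with dabrafenib (0.60, FDR 0.104). Both comparisons within a treatment use libraries of the comparison over both treatments and are not independent of it.

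**Figure D3:**
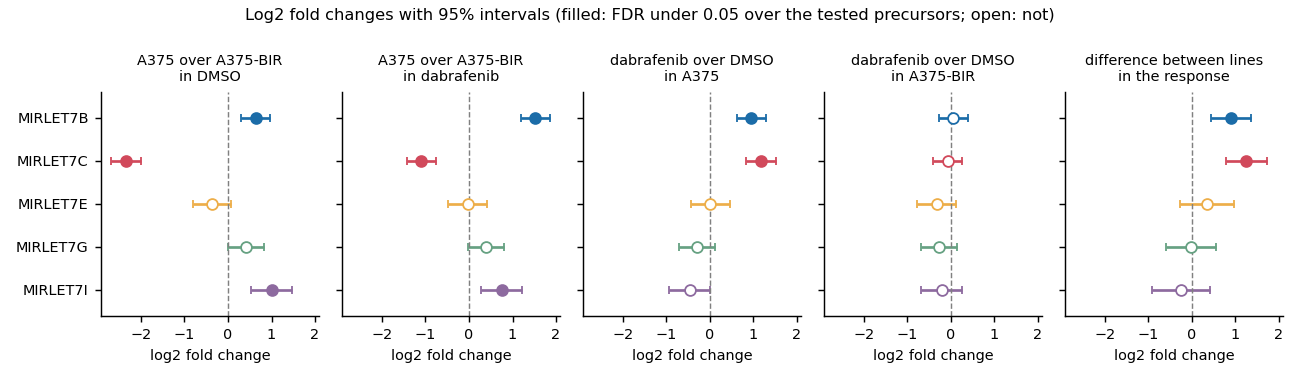
Log2 fold change (x axis) of each of the 5 precursors (y axis) in 5 comparisons, with 95% intervals; filled points passed FDR 0.05. The dabrafenib responses of let-7b and let-7c are 0.95 and 1.17 in A375, and 0.06 and -0.08 in A375-BIR.

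In A375, dabrafenib raised let-7b and let-7c on the CPM scale. let-7b rose 1.93-fold (log2 fold change 0.95, SE 0.15, FDR 2.89e-04) and let-7c 2.25-fold (1.17, SE 0.16, FDR 6.05e-05), from the values given above. These were 2 of the 5, beside 25.1% of all tested called and 18.3% called higher. let-7i (-0.46, 95% interval -0.93 to 0.005, FDR 0.152), let-7g (-0.30, -0.71 to 0.11, FDR 0.279) and let-7e (0.01, -0.43 to 0.45, FDR 0.959) were not called.

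The calls of all 5 precursors in this comparison, and the direction of let-7e, depended on the processing. Total counts in place of TMM moved the median log2 fold change of all tested precursors by -0.50, DESeq2 size factors by -0.20 and leaving out the rRNA-like precursors by -0.13. With total counts let-7g (-0.80, FDR 0.00232) and let-7i (-0.96, FDR 0.00232) were called lower, and let-7e was at -0.48. Both let-7g and let-7i were called lower in 5 of 21 alternatives, with values down to -1.10 and -1.25. Total counts without the 12 let-7 and miR-98 precursors, an alternative added after the data were seen, moved the median by -0.80 and ended the calls of let-7b (0.15, FDR 0.465) and let-7c (0.37, FDR 0.0698), while let-7e was called lower (-0.77, FDR 0.00677). The let-7b call was also lost with a filter of 1 CPM in 3 libraries (0.53, FDR 0.0734). Relative to the median of all tested precursors, which was 0.14 with TMM, let-7b was at 0.80 to 0.83 and let-7c at 1.01 to 1.05 over 5 scalings, while let-7e was at -0.13 to -0.10, let-7g at -0.45 to -0.42 and let-7i at -0.61 to -0.58. This near-constancy follows from how scaling works, since a scaling shifts all precursors of a library alike.

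As shares of the library, which amounts to scaling by total counts, all 5 precursors were apart between the A375 treatments: let-7b and let-7c higher, and let-7e, let-7g and let-7i lower in every dabrafenib library, beside 55.4% of all tested that did not overlap. Without the rRNA-like precursors in the total, let-7b held 20.2% with DMSO and 34.3% with dabrafenib, let-7c 0.309% and 0.607%, let-7i 20.4% and 13.0%, let-7g 2.58% and 1.84%, and let-7e 0.979% and 0.869% (means, n = 3). let-7e then overlapped between the treatments.

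**Figure D4:**
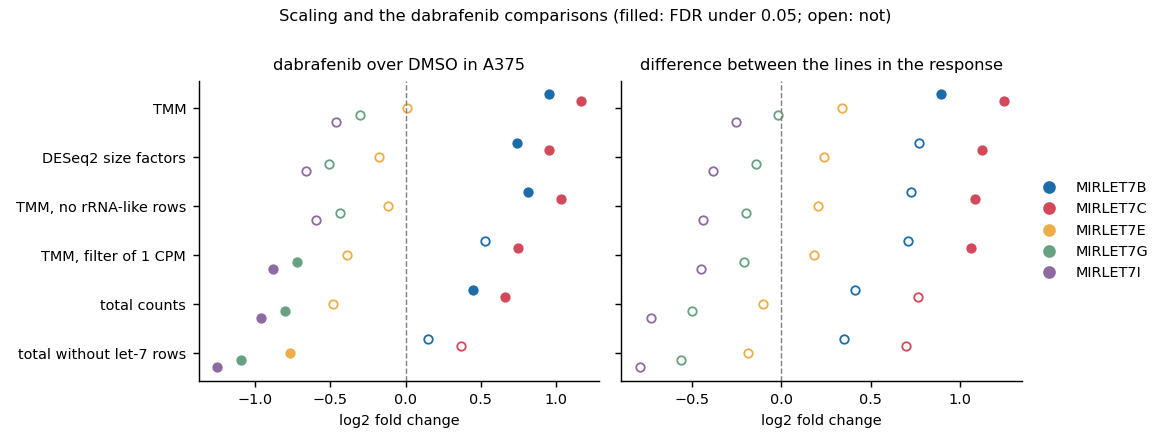
Log2 fold change (x axis) of the 5 precursors under each scaling or filter (y axis), for the dabrafenib response in A375 and for its difference between the lines; filled points passed FDR 0.05. In A375 let-7e lies at 0.01 with TMM and at -0.48 with total counts, and let-7b at 0.95 with TMM and 0.15 with total counts without let-7.

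In A375-BIR, none of the 5 was called after dabrafenib, beside 20.6% of all tested. edgeR called 0 of the 5, with 0 at an unadjusted p under 0.05 against 62 of all 175 tested, and the DESeq2 Wald test also called 0. let-7b was at 0.06 (95% interval -0.27 to 0.38, FDR 0.856) and let-7c at -0.08 (-0.40 to 0.25, FDR 0.788). let-7e (-0.33, FDR 0.261), let-7g (-0.28, FDR 0.305) and let-7i (-0.21, FDR 0.548) were below 0 without passing. The shares of the A375-BIR groups overlapped for all 5, so 0 of the 5 were apart, beside 36.0% of all tested. let-7e was called lower with a filter of 1 CPM (-0.57, FDR 0.0475, beside 9.85% of the 538 then tested), with no filter (-0.60, FDR 0.0473, beside 4.41% of 839) and with total counts without the let-7 precursors (-0.58, FDR 0.0447, beside 30.9%).

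The response to dabrafenib differed between the lines for let-7b and let-7c. In a test of the difference itself, the response of let-7b was larger in A375 by 0.89 (SE 0.21, 95% interval 0.43 to 1.36, FDR 0.0282) and that of let-7c by 1.25 (SE 0.22, 0.77 to 1.72, FDR 0.0104) on the log2 scale. These were 2 of the 5, beside 3.43% of all tested called and 2.86% with a larger response in A375. For let-7e (0.34, FDR 0.615), let-7g (-0.02, FDR 1.00) and let-7i (-0.25, FDR 0.755) the difference did not pass. The let-7b call was lost in 16 of 20 alternatives (0.35 to 1.02, FDR up to 0.489). It was lost without any 1 of 9 libraries (all but replicate 3 of each A375-BIR group and replicate 2 of A375 with DMSO), with values of 0.71 to 1.02 and FDR up to 0.365 when a library was left out. The let-7c call held in 17 of 20, and was lost with total counts (0.76, FDR 0.0512), with total counts without the let-7 precursors (0.70, FDR 0.0769) and without replicate 2 of A375-BIR with dabrafenib (1.16, FDR 0.0662). The median of all tested precursors in this comparison was 0.17 with TMM and moved by -0.47 with total counts.

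The ratio of let-7c to let-7b, which differ by G17A, does not depend on the scaling of a library. It does depend on how RSEM divided reads that fit both, and how many let-7c counts came from such reads was not checked. This ratio was chosen with earlier results of these data known, so its p-values below are not independent of that choice. For every 100 counts of let-7b there were 1.60, 1.48 and 1.51 counts of let-7c in A375 with DMSO and 1.80, 1.77 and 1.74 with dabrafenib. In A375-BIR there were 11.8, 11.5 and 12.9 with DMSO and 11.3, 12 and 9.66 with dabrafenib. The lines were far apart in both treatments, the A375 treatments were narrowly apart, and the A375-BIR treatments overlapped. On the log2 scale the mean ratio was -6.03 ± 0.06 and -5.82 ± 0.02 in A375, and -3.05 ± 0.09 and -3.19 ± 0.16 in A375-BIR (DMSO and dabrafenib, SD, n = 3).

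Over both treatments the ratio was 6.97-fold lower in A375 (log2 difference -2.80, exact permutation p = 0.005, the smallest the 400 arrangements can give, 0.025 after adjustment over 5 comparisons). The adjusted p was also 0.025 without any 1 library, again from the smallest p possible (0.005). It did not pass with the replicate number as a block (0.156, from 0.03125, the smallest its 64 arrangements can give). It was 7.88-fold lower with DMSO (-2.98) and 6.17-fold lower with dabrafenib (-2.63), where the exact permutation p of 0.1 is the smallest that 3 against 3 allows. Dabrafenib moved it by 0.21 in A375 (exact permutation p = 0.1, again the smallest) and by -0.14 in A375-BIR (exact permutation p = 0.3). Leaving out any 1 library gave -2.85 to -2.77 for the difference over both treatments. Against the mean of the 3 let-7a precursors, the neighbour by G19A, let-7c reached 4.88 and 9.95 counts per 100 in A375 and 15.2 and 17.0 in A375-BIR, with DMSO and dabrafenib. let-7c was thus lower in A375 beside either of its nearest relatives. How many let-7c counts came from reads that also fit let-7a was not checked.

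The ratio of let-7b to let-7i was chosen after the values were seen and is a description. It was 0.896, 1.02 and 1.08 in A375 with DMSO and 2.14, 3.05 and 2.81 in A375 with dabrafenib. In A375-BIR it was 1.25, 1.24 and 1.44 with DMSO and 1.84, 1.73 and 1.27 with dabrafenib. The A375 dabrafenib libraries stood above the other 9.

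**Figure D5:**
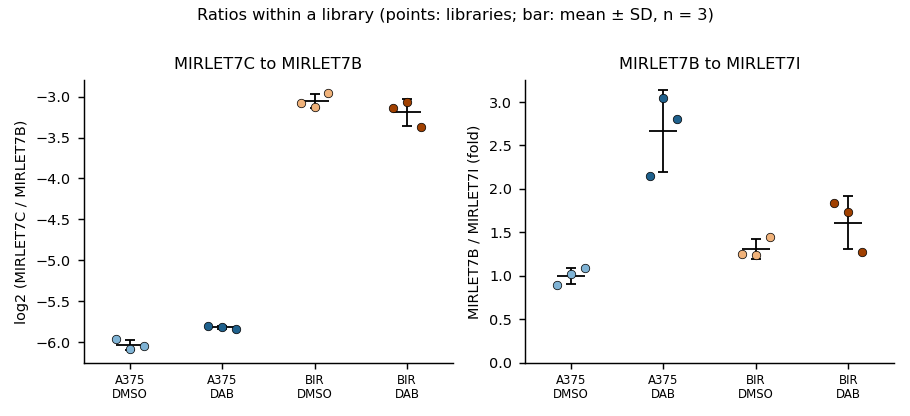
Ratios within a library, as log2 of let-7c over let-7b (left) and let-7b over let-7i as a fold (right), by group (x axis), with 1 point per library and bars for the mean ± SD (n = 3). The let-7c ratio averages -6.03 and -5.82 in A375 and -3.05 and -3.19 in A375-BIR, and let-7b over let-7i is highest in A375 with dabrafenib (2.14 to 3.05).

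Among the 5 precursors themselves, let-7b made up 45.5% of the sum in A375 with DMSO and 67.7% with dabrafenib, and let-7i 45.8% and 25.8% (means, n = 3). In A375-BIR let-7b made up 46.8% and 51.6%, and let-7i 35.9% and 32.7%. let-7c made up 0.695% and 1.2% of the sum in A375, and 5.64% and 5.69% in A375-BIR. let-7g held 5.81% and 3.64% in A375 and 6.84% and 6.02% in A375-BIR, and let-7e 2.21% and 1.72% in A375 and 4.86% and 3.97% in A375-BIR. In A375, let-7b and let-7i were near equal with DMSO, and let-7b held most of the sum with dabrafenib.

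The other 7 let-7 and miR-98 precursors also split by line. Over both treatments 4 of 7 were called higher in A375 and 3 of 7 lower, beside 60.0% of all tested called in either direction. MIRLET7D was at 1.05, MIRLET7F1 at 0.87, MIRLET7F2 at 0.77 and MIR98 at 1.5, while MIRLET7A1 (-0.50), MIRLET7A2 (-0.51) and MIRLET7A3 (-0.50), whose mature sequence is the same and whose counts are not independent, were lower. let-7c thus lay on the side of let-7a, and let-7b, let-7g and let-7i on that of let-7d, let-7f and miR-98. MIRLET7F1 and MIRLET7F2 also share a mature 5p sequence, so their counts are not independent either. For the drug, edgeR called 0 of the 7 in A375 (1 at an unadjusted p under 0.05 and 1 by DESeq2), beside 25.1% of all tested. It called 0 in A375-BIR (3 unadjusted, 0 by DESeq2), beside 20.6%, and 0 in the difference (3 unadjusted, 0 by DESeq2), beside 3.43%. At an unadjusted p under 0.05, 58, 62 and 34 of all 175 tested passed in the same order. As shares, all 7 were lower in every A375 dabrafenib library than with DMSO, beside 55.4% of all tested that did not overlap. On the CPM scale MIRLET7F2 alone was apart there, also lower, with no figure over all tested precursors for that scale. In A375-BIR the 3 let-7a precursors were lower without overlap on both scales, beside 36.0% of all tested for shares and no such figure for CPM. The others overlapped there. In the dabrafenib libraries alone, all 3 let-7a calls were lost in 5 of 21 alternatives, among them leaving out replicate 1 or 2 of A375-BIR or replicate 3 of A375 with dabrafenib (MIRLET7A1 at -0.41 to -0.30 without 1 library, FDR up to 0.145). There MIRLET7F2 (0.60) lost its call in 6 of 21 alternatives, down to 0.12 with FDR 0.538, and MIRLET7F1 (0.82) in 3 of 21, down to 0.34 with FDR 0.0854.

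Neighbouring precursors on the same strand were read for whether they moved with their member. MIRLET7A3 lies 864 bases from MIRLET7B and was lower in A375 (-0.50), while MIRLET7B was higher (1.08). MIRLET7A1 (-0.50) and MIRLET7A2 (-0.51), on other chromosomes, share its mature sequence. The MIRLET7A3 value therefore cannot tell whether the precursor at this locus moved with MIRLET7B. MIR4763, 29 bases from MIRLET7B, and MIR99A, 659 bases from MIRLET7C, had 0.5 to 8 and 0 to 10 expected counts per library and were not tested. MIR125A, 390 bases from MIRLET7E, was not called (-0.36, FDR 0.321), was called lower in 2 of 20 alternatives, with the 1 CPM filter (-0.48, FDR 0.0196) and with no filter (-0.52, FDR 0.0151), and turned to 0.11 without replicate 3 of A375-BIR with DMSO. MIR99B, 105 bases from MIRLET7E, was not called between the lines over both treatments (-0.27, FDR 0.265) or with dabrafenib (0.25, FDR 0.523), and was lower in A375 with DMSO (-0.80, FDR 0.0296). It rose with dabrafenib in A375 (1.01, FDR 0.0231), a call lost in 11 of 21 alternatives, down to 0.18 with FDR 0.604 for total counts without the let-7 precursors. Leaving out 1 library gave 0.54 to 1.26, and the call was lost without replicate 2 or 3 of A375 with DMSO or replicate 2 of A375 with dabrafenib, and the difference between the lines with DMSO lost its call in 6 of 22 alternatives (-1.02 to -0.60, FDR up to 0.132), among them leaving out replicate 1 of A375-BIR or replicate 2 or 3 of A375 with DMSO. MIR100 (-1.41, FDR 4.12e-05) and MIR125B1 (-1.39, FDR 3.74e-06), paralogues of the let-7c and let-7e neighbours that lie in the cluster of MIRLET7A2, were lower in A375 over both treatments, as was let-7c. So was MIR125B2 (-1.42, FDR 1.31e-05), which shares the host MIR99AHG with MIRLET7C. It lies outside the 10 kb window and is named after its values were seen. In the comparison over both treatments 34.3% of all tested precursors were called lower in A375. MIR125B1 and MIR125B2 are numbered copies of miR-125b, and how many reads fit both was not checked. The MIR125B2 value therefore cannot tell whether the precursor in this host moved with MIRLET7C.

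The tested precursors most like each member across the 12 libraries were found by the root mean square difference of centred log2 CPM. For let-7b they were MIR197 (0.28), MIR181B1 (0.36) and MIR345 (0.39), against a median of 0.91 over 174 precursors. For let-7c they were MIR196B (0.36), MIR30C2 (0.38) and MIR30C1 (0.41), against 1.08, and for let-7e MIR92A1 (0.19), MIR92A2 (0.21) and MIR26A2 (0.22), against 0.68. let-7g was most like MIR21 (0.27), MIRLET7F2 (0.27) and MIRLET7I (0.28), and let-7i most like MIR140 (0.21), MIRLET7G (0.28) and MIRLET7F2 (0.30). let-7b and let-7c, with G17A between them, differed by 1.40, and let-7c ranked 148 of 174 in likeness to let-7b, and let-7b 134 of 174 in likeness to let-7c.

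Markers of cell types were read as a check of the labels, with CPM in this paragraph scaled by the library total alone, without TMM factors. Of 12 melanocyte lineage and melanoma miRNAs, 8 were counted in A375 with DMSO and 7 in each other group, MIR507 and the 3 MIR514A precursors were at 0 throughout, and MIR506 was counted in A375 with DMSO alone. Their summed level was 27216 to 31566 CPM in A375 with DMSO, 15892 to 19077 in A375 with dabrafenib, 1165 to 1906 in A375-BIR with DMSO and 1903 to 2815 in A375-BIR with dabrafenib. MIR146A was the most abundant of them in each group, with a mean of 26383 CPM in A375 with DMSO and 1232 CPM in A375-BIR with DMSO, so this list moved with the line as let-7b and let-7i did, and its part in those results was not tested. Markers of other cells were lower than these in every group: the group medians of the summed CPM were 0 to 47.0 for endothelial MIR126 and 8.21 to 27.1 for 5 muscle miRNAs. The sums of 7 keratinocyte and epithelium miRNAs were 51.8 to 98.5 with DMSO and 135 to 155 with dabrafenib in A375, with medians of 75.2 and 85.5 in A375-BIR. Those of 6 neuronal miRNAs were 196 to 279 and 54.4 to 194 in A375, and 73.3 to 224 and 250.4 to 357 in A375-BIR. The sums of 5 haematopoietic miRNAs were 51.8 to 106.7 and 21.0 to 194 in A375, and 28.2 to 33.2 and 199.6 to 292 in A375-BIR, with DMSO and dabrafenib. Those of 2 smooth muscle and fibroblast miRNAs were 155 to 667 and 325 to 543 in A375, and 249 to 257 and 627 to 1113 in A375-BIR. The haematopoietic, smooth muscle and neuronal lists were thus apart between the treatments in A375-BIR, and the melanocyte, keratinocyte and neuronal lists in A375, and their part in the results was not tested. The neuronal MIR124 precursors, MIR451A of red cells and MIR429 and MIR203A of epithelium were at 0 in all groups. Liver MIR122 had 0 counts in all 12 libraries, which allows up to 24.4 to 85.5 CPM by counting error alone.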

How the data were processed

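The deposited values are RSEM expected counts per miRNA precursor gene, made by the authors by alignment to hg38 (RSEM 1.2.25 and R 4.0.2 per their processing notes). RSEM divides reads among precursors, so arms and identical mature sequences were not told apart. Counts were rounded and fitted in edgeR 4.0.16 (R 4.3.3): filterByExpr over the 4 groups (175 tested), TMM, 1 mean per group over 12 libraries, quasi-likelihood F test, Benjamini-Hochberg over all tested precursors, FDR below 0.05; SE was the log2 fold change over the square root of F. A positive log2 value between lines means higher in A375. Shares and ratios were tested by exact two-sided permutation. Named precursors were the 5 members, the other let-7 and miR-98 genes, and miRNA genes within 10 kb on the same strand. MIR100, MIR125B1 and the 3 most alike in pattern were also named. Members, lists and the ratio of let-7c to let-7b were chosen with earlier results of these data known. Alternatives were DESeq2 1.42.0 size factors and Wald test, total counts, other filters, no rRNA-like precursors (18 shared bases with 45S), only the libraries compared, each library left out, and a replicate block; total counts without let-7, and the block within DMSO libraries only, were added after seeing the data. The labels do not say that the replicate number marks a shared batch. In the data, libraries with the same number correlated at 0.105, 0.219 and 0.303 between the DMSO groups (residuals over precursors), while each other pairing of groups had at least 1 value at or below 0.1, so the block was an alternative only. Between the A375-BIR treatments the values were -0.321, 0.0059 and -0.536 for replicates 1 to 3. The pipeline was tested on simulated data. For the fit these held 4-fold changes and no shift in the rRNA-like share, so they do not cover smaller changes or that shift. Depth was 35070 to 122792 counts per library.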

Additional observations from a re-analysis of the deposited data

Results flagged for a closer look

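A test of the difference itself found that MIRLET7B responded to dabrafenib differently in the lines, by 0.89 on the log2 scale (A375 minus A375-BIR, SE 0.21, FDR 0.0282), a call lost in 16 of 20 alternatives (0.35 to 1.02, FDR up to 0.489). The same test found a difference of 1.25 for MIRLET7C (SE 0.22, FDR 0.0104), which held in 17 of 20. All groups held 3 libraries, and groups of 3 were not tested for a single library far from the rest.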

How the results depend on the processing

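In the edgeR fit, the line comparisons of MIRLET7B and MIRLET7C kept direction and call in all alternatives, as did MIRLET7I over both treatments and with DMSO. As a share of the library over both treatments, MIRLET7B and MIRLET7C kept the call in all 14 alternatives and MIRLET7I in 11. The ratio of let-7c to let-7b had an unadjusted exact permutation p under 0.05 in all 13. Its p adjusted over 5 comparisons was 0.025 without any 1 library and 0.156 with the replicate number as a block. Each unadjusted p was the smallest its arrangements can give, so these p-values do not show how stable the ratio is. The log2 difference itself was -2.85 to -2.77 without any 1 library. The replicate number as a block changed no member's call (MIRLET7B at 0.64 with DMSO, MIRLET7B difference in response 0.88), and gave an exact permutation p of 0.03125 for the ratio. For the treatment comparisons the cause of the changes below was not tested, except that fewer libraries or precursors follow from the setting itself.

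In A375, dabrafenib called 4 members with no filter (beside 5.60% of the 839 then tested), with total counts (beside 35.4%) and with only the libraries compared (beside 35.4%), and 87 of all precursors with total counts without the let-7 precursors (added after seeing the data). In A375-BIR, 1 member was called with the 1 CPM filter (beside 9.85% of 538), with no filter (beside 4.41%) and with total counts without let-7 (beside 30.9%). All precursors called there were 19 with only the libraries compared and 20 to 46 without 1 library, with 20 without replicate 1 of A375-BIR with DMSO and 22 without replicate 2 of either A375-BIR group. For the difference in response, 1 member was called with the 1 CPM filter (beside 0.929%), no filter (0.715%), DESeq2 size factors (2.86%), the DESeq2 Wald test (3.43%) and without rRNA-like precursors (1.21%), and 0 with total counts (0.571%) and total counts without let-7 (6.86%). Without 1 library it was 0 to 2 members and 2 to 6 of all precursors (2 without replicate 2 of A375-BIR with dabrafenib, 3 without replicate 1 of A375 with DMSO or replicate 1 or 2 of A375 with dabrafenib), and all precursors called were 1 with total counts, 2 without rRNA-like precursors and 12 with total counts without let-7.

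Values not called in the first place turned sign. MIRLET7E between lines with dabrafenib was 0.044 with DESeq2 size factors and 0.044 with the Wald test, and -0.23 to 0.15 without 1 library. MIRLET7G there was -0.070 with total counts. MIRLET7E after dabrafenib in A375 was -0.39 (1 CPM filter), -0.38 (no filter), -0.18 (size factors), -0.48 (total counts), -0.18 (Wald test), -0.12 (without rRNA-like), -0.17 (only the libraries compared), -0.77 (total counts without let-7, where it was called lower, FDR 0.00677) and -0.082 to 0.099 without 1 library. MIRLET7B in A375-BIR was -0.18 (1 CPM filter), -0.18 (no filter), -0.030 (size factors), -0.030 (Wald test), -0.20 (total counts without let-7) and -0.13 to 0.22 without 1 library, and MIRLET7C there -0.24 to 0.071. In the difference in response, MIRLET7E was -0.10 with total counts and -0.19 without let-7 in the total, MIRLET7G -0.22 to 0.16 and MIRLET7I -0.50 to 0.038 without 1 library. MIR125A between lines was -0.54 to 0.11 without 1 library.

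The scaling also moved the split of all precursors called. After dabrafenib in A375 it was 32 higher and 12 lower with TMM, 23 and 23 with DESeq2 size factors, 18 and 44 with total counts, and 15 and 72 with total counts without let-7. Between the lines over both treatments it was 45 and 60 with TMM, 54 and 50 with size factors, and 35 and 72 with total counts. With DMSO it was 28 and 53 with TMM, 38 and 43 with size factors, and 42 and 43 with total counts without let-7. With dabrafenib it was 42 and 39 with TMM, 24 and 58 with total counts, and 29 and 50 with total counts without let-7. After dabrafenib in A375-BIR it was 23 and 13 with TMM, 23 and 20 with size factors, and 19 and 35 with total counts without let-7. For the difference in response it was 5 and 1 with TMM, 0 and 1 with total counts, and 2 and 10 with total counts without let-7. Without the rRNA-like precursors, which also removes called precursors, the TMM split over the precursors that stay went from 23 and 12 to 19 and 17 after dabrafenib in A375, from 14 and 13 to 13 and 11 in A375-BIR, and from 37 and 39 to 28 and 42 between the lines with dabrafenib.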
